A study of Bos taurus with 28 samples.

Results

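The genes described here make, store and break down glucose in the liver: the enzymes of gluconeogenesis and glycolysis, lactate dehydrogenase, glycogen metabolism, the pyruvate dehydrogenase complex with its kinases, and the malate and aspartate shuttle. They were listed by gene symbol, 42 genes in all, and 40 of them had at least 1 probe set (short probes that together read a transcript) annotated to exactly 1 symbol on the Affymetrix Bovine GeneChip, among 9155 named genes on the array. *MDH1* and *FOXO1* had no such probe set and were not analysed here. The 40 genes had 67 probe sets: 24 genes had 1 and 16 had several. For genes with several, the probe set with the highest mean log2 signal over the arrays was taken, and all 40 passed the filter on low signals.

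Liver mRNA came from dry, ovariectomized Holstein cows, so every group lacked ovarian hormones other than those given. There were 4 groups with 7 arrays each, 28 arrays in all. They were untreated controls (CO), cows with an estradiol ear implant (E2T), cows with intravaginal progesterone (P4T) and cows with both devices (E2P4T), each for 14 days. The study's methods and treatment protocol give the vaginal device, whereas the source labels of P4T and E2P4T call the exposure intradermal. The ear implant was intradermal. By the study's methods the cows went through the treatments in a replicated Latin square, so arrays of different groups may come from the same cow. The labels give neither cow nor period nor age, so the p-values below measure the spread between arrays. The comparisons ask whether estradiol, progesterone or their combination changed the transcript level of these genes.

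Ruminants absorb little glucose from the gut, and their liver makes most of the glucose that the body uses, largely from propionate, lactate and amino acids. Pyruvate carboxylase (*PC*) turns pyruvate to oxaloacetate, and phosphoenolpyruvate carboxykinase, cytosolic (*PCK1*) or mitochondrial (*PCK2*), turns oxaloacetate to phosphoenolpyruvate. Fructose-1,6-bisphosphatase and glucose-6-phosphatase complete the path to free glucose, while glycogen synthase and glycogen phosphorylase store and release it.

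Arrays E2P4T 5 and P4T 4 stood apart from the rest before any comparison. Over all probe sets tested, their median correlation with the other arrays was 0.553 and 0.724, against 0.827 to 0.923 for the other 26 arrays. On E2P4T 5, 14 of 15 measured hepatocyte markers lay below the range of the 26 arrays, and the mean of that list was 10.0, against 15.04 to 15.73 on the 26. Albumin (*ALB*) had a log2 signal of 12.06 there and 16.57 to 18.16 on the 26 arrays. Of 4 biliary markers, 3 lay above the range of the 26 on E2P4T 5, with *SPP1* at 15.0 against at most 7.22, and all 6 macrophage markers lay below. On P4T 4, 4 of the 15 hepatocyte markers lay below the range of the 26 and 3 above it, with the list's mean at 15.39, and 3 of 6 macrophage markers lay below. For the hybridisation spikes the mean was 17.49 on P4T 4 and 18.44 on E2P4T 5 (log2 signal), against 13.18 to 16.45 on the 26. The list of red blood cell genes, 4 measured, ran from 4.30 to 7.47 in CO, 4.89 to 7.25 for E2T, 5.14 to 7.14 for P4T and 4.84 to 6.15 for E2P4T, and its part in the results was not tested. Because of E2P4T 5 and P4T 4, the comparisons are given with all 28 arrays and without these 2 (26 arrays). In bulk tissue, fewer cells of a type and less RNA per cell cannot be told apart.

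No gene of glucose or glycogen metabolism passed an adjusted p of 0.05 in any comparison, with 28 or with 26 arrays. The test was limma, with Benjamini-Hochberg adjustment over 18517 probe sets (28 arrays) or 14414 (26 arrays), and no probe set of the whole array passed either (background 0%). At an unadjusted p under 0.05, the F test over the 3 contrasts with CO held 1 of the 40 genes, *PC*, with either set of arrays, against a background of 2.11% of all probe sets with 28 arrays and 5.32% with 26. In limma's tests none of the 40 met the criteria of the study (F test p under 0.01, p under 0.05 in a contrast, and its minimum fold). Of all probe sets, 0.335% met them with 28 arrays and 0.867% with 26. The study applied these limits to a mixed model with cow and period, which was not run here. The count of 0 therefore does not say which of the 40 the study itself called.

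Taking each treatment against CO, the unadjusted p was under 0.05 for *PC*, lower, in E2T, where the background was 5.40% of all probe sets, 1.45% higher and 3.94% lower. It was so for *PC*, lower, in P4T (background 2.75%, with 0.950% higher and 1.80% lower). In E2P4T it was so for *PGK1* and *LDHA*, both higher (background 4.90%, with 2.18% higher and 2.72% lower). With 26 arrays, 3 genes were under that threshold in E2T (*PC* lower, *PCK1* and *LDHA* higher; background 10.4%, with 3.66% higher and 6.72% lower). In P4T there were 3 (*PC* and *KHK* lower, *GBE1* higher; background 7.86%, with 2.84% higher and 5.02% lower), and in E2P4T 2 (*PC* lower, *LDHA* higher; background 9.61%, with 3.59% higher and 6.02% lower). These shares of the 40 genes, 2.5% to 7.5%, were near or below the share of all probe sets.

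The members' fold changes lay close to 0, with more above than below. Their median log2 fold change against CO was 0.09 for E2T, 0.04 for P4T and 0.12 for E2P4T, and over all probe sets tested it was -0.10, -0.03 and -0.02. Above CO were 25, 24 and 27 of the 40 genes, 62.5%, 60% and 67.5%, against 40.4%, 46.4% and 48.5% of all probe sets. The members are mostly genes of high signal: 38 had a mean signal at or above the median of all probe sets. Over the probe sets of such signal, the median log2 fold change was -0.015, 0.001 and 0.003, closer to that of the members. With 26 arrays the members' medians were 0.09, 0.13 and 0.13, against -0.05, -0.05 and -0.04 over all probe sets tested. These directions move with the scaling: when each array was centred on its median, the median over all probe sets in E2T was 0.17 and the members' median there 0.36. Above CO were then 39, 28 and 31 of the 40 genes, against 65%, 60.7% and 54.8% of all probe sets. The *GAPDH* control difference, described below with *FBP1*, had a higher median in CO than in each treatment. Its part in these directions and that of treatment cannot be told apart. The 95% intervals bound the size of change that these arrays allow. For 22 of the 40 genes all 3 intervals lay within 1 log2 unit, a 2-fold change, and with 26 arrays this held for 28. The within-group SD of the 40 genes had a median of 0.613 with 28 arrays and 0.490 with 26, and with 26 arrays it ran from 0.208 for *GYG1*, the primer protein of glycogen, to 1.37 for *FBP1*.

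**Figure D1:**
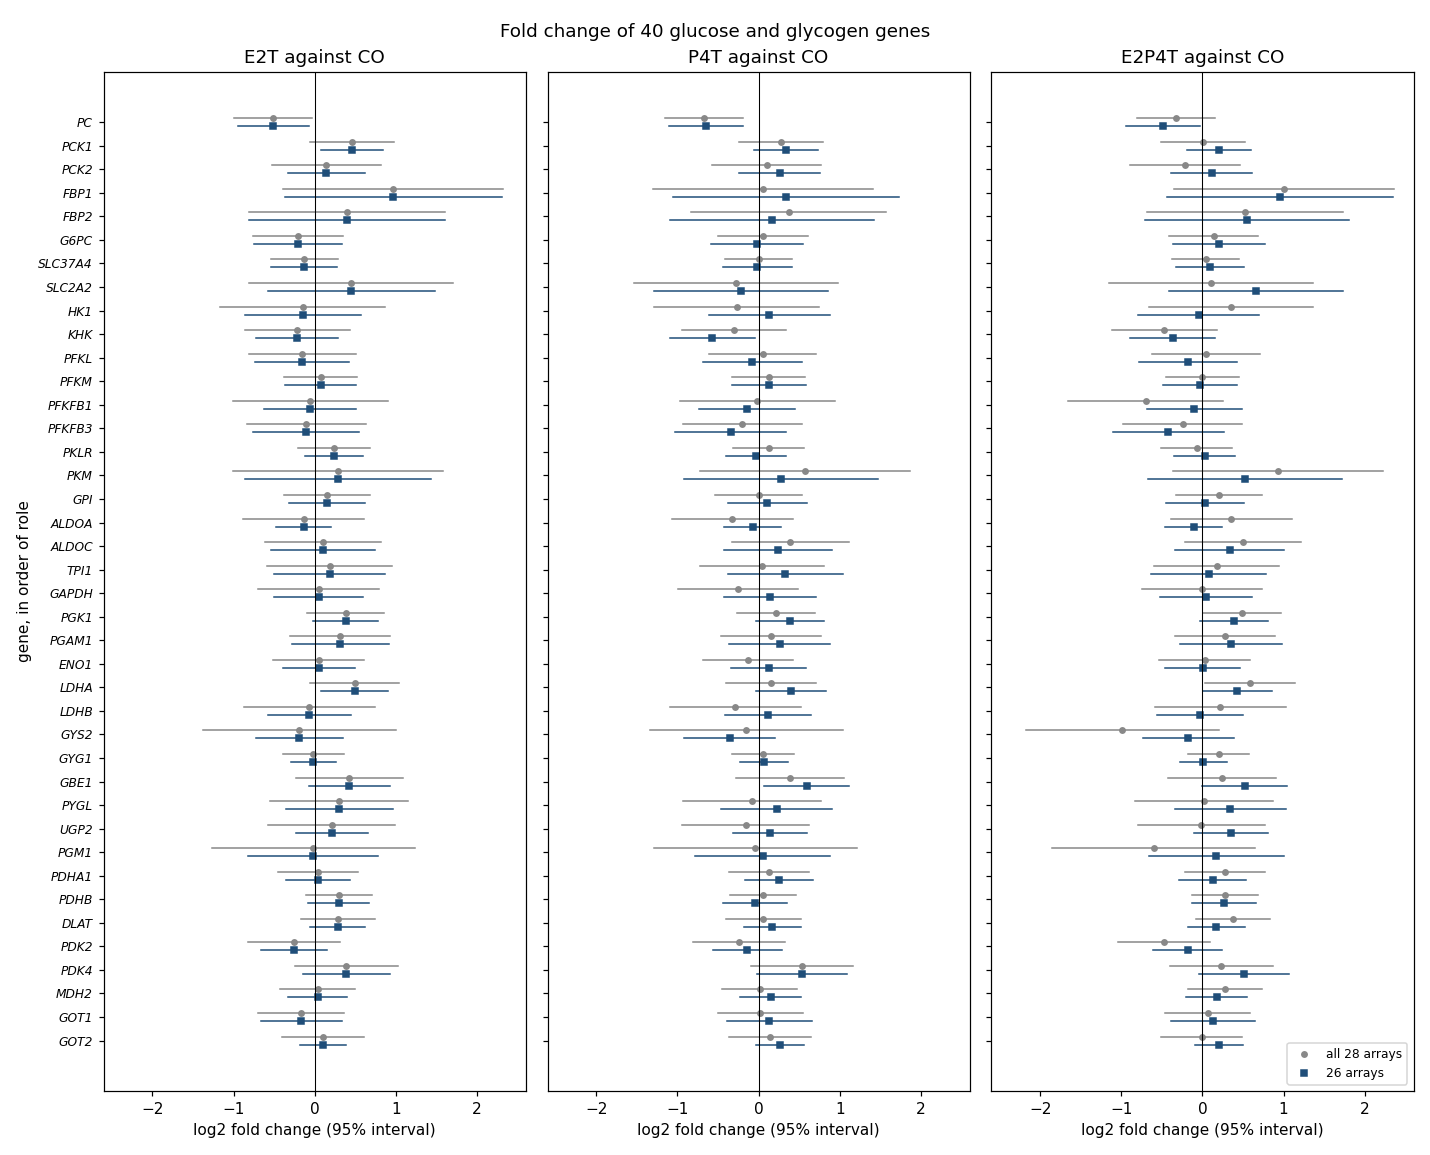
Log2 fold change against CO (x axis) of the 40 genes (y axis, in order of role) in E2T, P4T and E2P4T, with 95% intervals from limma; grey circles are all 28 arrays and blue squares the 26 arrays. Most intervals cross 0, those of PC in E2T and P4T lie below 0 with either set of arrays, and with the 26 arrays the widest belong to FBP1, FBP2, PKM and SLC2A2.

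Among the gluconeogenic enzymes, *PC* was the gene with the lowest F test p. In CO its log2 signal was lowest at 11.84, median 12.35 and highest 12.79. In E2T it was 11.50, 11.77 and 12.56, in P4T 11.05, 11.53 and 12.42, and in E2P4T 11.30, 11.92 and 12.90. The groups overlapped, but 5 of 7 E2T arrays, 4 of 7 P4T arrays and 3 of 7 E2P4T arrays lay below every CO array. The log2 fold change was -0.51 ± 0.24 (SE, n = 7 against 7) in E2T (limma, unadjusted p = 0.0385, adjusted p = 0.876). It was -0.67 ± 0.24 in P4T (unadjusted p = 0.00796, adjusted p = 1) and -0.33 ± 0.24 in E2P4T (unadjusted p = 0.174, adjusted p = 0.932). The highest E2P4T value came from array E2P4T 5. Without both arrays the differences were -0.51, -0.65 and -0.48, with limma's unadjusted p at 0.0241, 0.00677 and 0.0391 and its adjusted p at 0.433, 0.612 and 0.511. With 26 arrays *PC* was thus lower than CO at an unadjusted p under 0.05 in each of the 3 treatments, as were 1.50% of all probe sets. The treatments share the CO arrays, so these 3 differences are not independent of each other. With each array centred on its median the differences were -0.24, -0.55 and -0.27, and no unadjusted p was under 0.05. The other 2 probe sets of *PC* did not reach the filter on low signals.

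*PCK1*, which takes oxaloacetate on to phosphoenolpyruvate in the cytosol, had a CO log2 signal of 13.59 at the lowest, 14.28 at the median and 14.97 at the highest. It was 14.25, 14.71 and 15.27 in E2T, 14.17, 14.64 and 14.85 in P4T, and 13.12, 14.42 and 14.77 in E2P4T. The groups overlapped, 6 of 7 E2T arrays lay above the CO mean, and the lowest value of all was from E2P4T 5. The log2 fold change was 0.46 ± 0.25 in E2T (SE, unadjusted p = 0.0814), 0.27 ± 0.25 in P4T and 0.01 ± 0.25 in E2P4T. Without the 2 arrays it was 0.46 ± 0.19 in E2T (limma, unadjusted p = 0.0203, adjusted p = 0.428), 0.34 in P4T and 0.20 in E2P4T.

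*PCK2* had medians of 13.16 in CO, 13.23 for E2T, 13.34 for P4T and 13.18 for E2P4T, within ranges of 12.18 to 13.55, 12.50 to 13.67, 12.14 to 13.79 and 10.83 to 13.34. The groups overlapped throughout. Its E2P4T difference was -0.22 with 28 arrays (95% interval -0.89 to 0.46) and 0.11 with 26 (-0.38 to 0.61), so its sign rested on E2P4T 5.

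*FBP1*, the liver fructose-1,6-bisphosphatase, had the widest spread of the 40 genes. Its log2 signal in CO was 4.56 at the lowest, 7.81 at the median and 10.24 at the highest. The same 3 values were 6.76, 8.84 and 9.88 for E2T, 6.07, 8.17 and 8.98 for P4T, and 7.09, 8.99 and 9.86 for E2P4T. Every treated array lay within the range of CO. The log2 fold change was 0.97 ± 0.67 in E2T (SE, 95% interval -0.39 to 2.32), 0.05 in P4T and 1.01 in E2P4T (-0.35 to 2.37). These intervals allow a change of more than 2-fold. The log2 difference between the 3' and 5' control probe sets of *GAPDH* is a measure of how far labelled RNA reached towards the 5' end. It was larger on many arrays where *FBP1* was low. The lowest *FBP1* values, 4.56 on CO 2, 6.07 on P4T 4, 6.35 on P4T 3 and 6.55 on CO 1, had control differences of 6.12, 8.48, 4.54 and 6.52. The highest, 10.24 on CO 6 and 9.94 on CO 7, had 2.31 and 3.09. The control difference had a median of 6.12 in CO, 4.36 for E2T, 4.54 for P4T and 4.15 for E2P4T. With it as a covariate, added after seeing the data, the *FBP1* difference in E2T was 0.38 with 28 arrays and 0.30 with 26. Because the control difference itself differed between CO and the treatments, its part and that of treatment cannot be told apart. The cause was not tested. The muscle isoform, *FBP2*, differed by 0.40 for E2T, 0.37 for P4T and 0.52 for E2P4T.

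**Figure D2:**
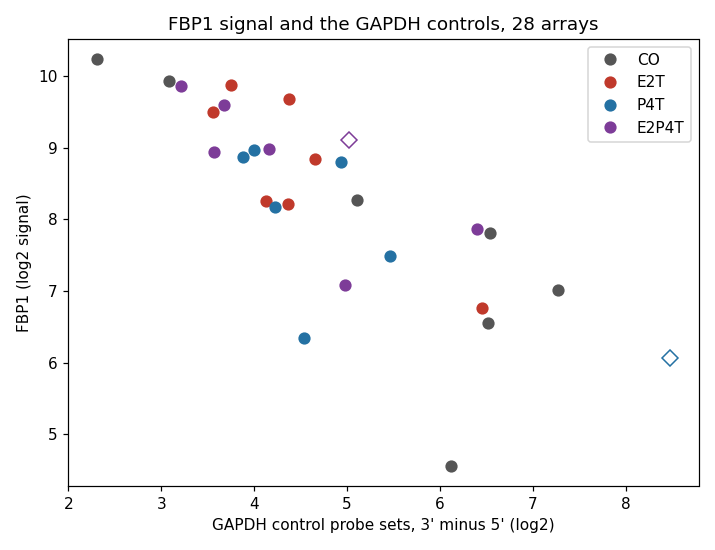
Log2 signal of FBP1 (y axis) on each of the 28 arrays against the log2 difference between the 3' and 5' GAPDH control probe sets (x axis), coloured by group, with P4T 4 and E2P4T 5 as open diamonds. CO holds both the highest FBP1 value, 10.24 at a control difference of 2.31, and the lowest, 4.56 at 6.12.

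Glucose-6-phosphatase (*G6PC*), which releases free glucose, had medians of 11.15 in CO, 10.87 for E2T, 11.37 for P4T and 11.48 for E2P4T, and the groups overlapped. Its ranges were 10.46 to 12.61, 10.40 to 11.92, 10.66 to 12.03 and 11.00 to 11.82. Its differences of -0.21, 0.06 and 0.14 had 95% intervals that ended at -0.76 and 0.69. *SLC37A4*, the transporter that brings glucose-6-phosphate to that enzyme, had no interval beyond 0.54 log2 units on either side with 26 arrays.

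**Figure D3:**
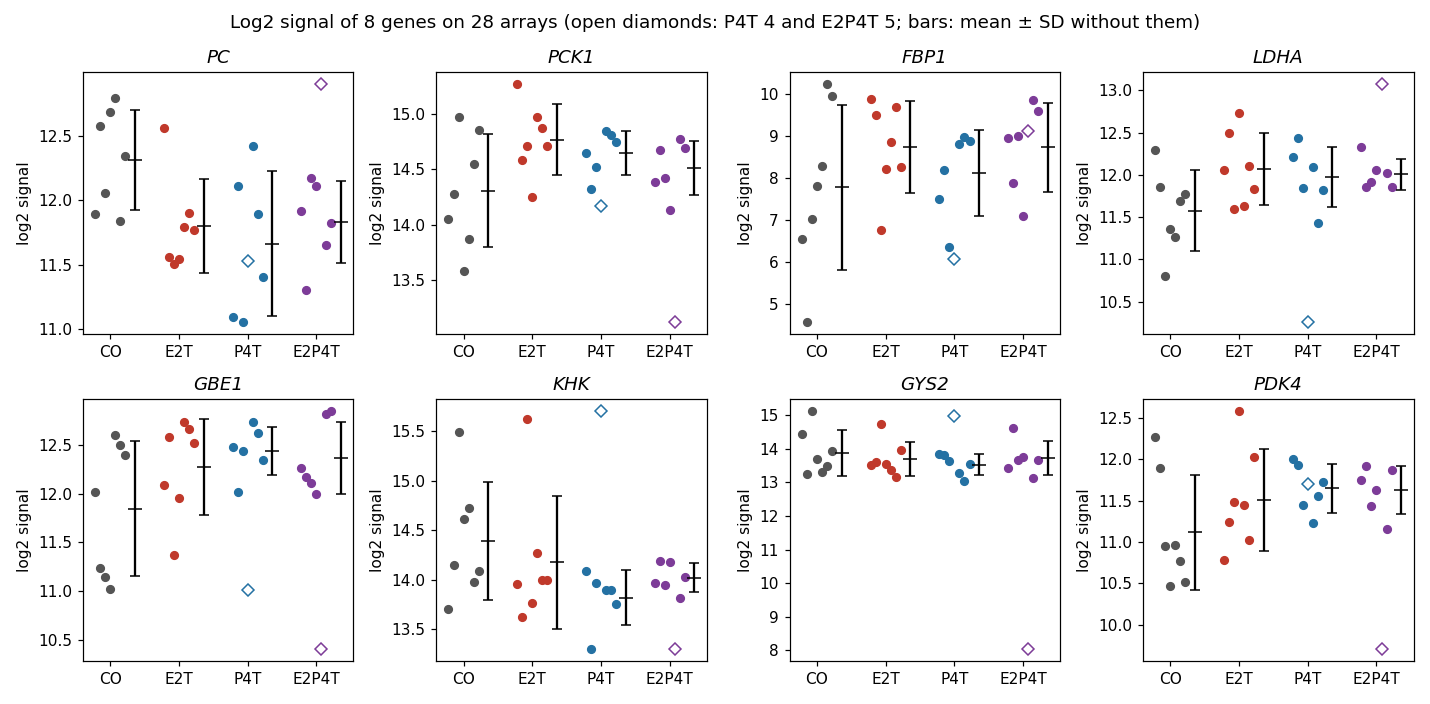
Log2 signal (y axis) of PC, PCK1, FBP1, LDHA, GBE1, KHK, GYS2 and PDK4 on each array by group (x axis); each y axis has its own range and does not start at 0. Open diamonds are P4T 4 and E2P4T 5, and black bars give the mean ± SD without them (n = 7, 7, 6 and 6). The groups overlap for every gene, and E2P4T 5 lies lowest of all arrays for PCK1, GBE1, KHK, GYS2 and PDK4.

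Of the 3 genes of hexose entry and phosphorylation, 1 was above CO for E2T, 0 for P4T and 2 for E2P4T with 28 arrays, and 1 in each treatment with 26. *SLC2A2*, the main glucose transporter of hepatocytes, had medians of 7.61 in CO, 7.68 for E2T, 7.14 for P4T and 7.59 for E2P4T. Its ranges of 4.49 to 9.08, 6.63 to 8.41, 5.54 to 8.13 and 3.98 to 8.81 overlapped, and the 95% intervals of its differences reached -1.53 and 1.71, so that they exclude little.

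*KHK*, ketohexokinase, which phosphorylates fructose, was 13.71, 14.15 and 15.49 (lowest, median, highest) in CO, 13.62, 13.99 and 15.63 in E2T, 13.30, 13.90 and 15.70 in P4T, and 13.30, 13.97 and 14.20 in E2P4T. The groups overlapped, all 7 E2P4T arrays lay below the CO mean, and E2T 3 and P4T 4 lay above every CO array. The differences were -0.21, -0.30 and -0.47 (± 0.32, SE). Without the 2 arrays the P4T difference was -0.57 ± 0.26 (limma, unadjusted p = 0.0333, adjusted p = 0.612), with 6 of 6 P4T arrays below the CO mean. Its 2 other probe sets gave -0.45 and 1.06 in P4T with 28 arrays, and with 26 arrays the only one tested gave -0.17. *HK1*, the hexokinase of most tissues, had 95% intervals within 1.36 log2 units with 28 arrays and 0.877 with 26.

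None of the 6 genes of the control steps of glycolysis had an unadjusted p under 0.05 at its chosen probe set. *PKLR*, the pyruvate kinase of liver, had medians of 12.53 in CO, 12.63 for E2T, 12.63 for P4T and 12.36 for E2P4T. Its values ran from 11.88 to 12.67, 12.25 to 13.41, 11.90 to 13.52 and 11.80 to 13.03. The groups overlapped, and none of the 95% intervals of its differences went beyond 0.68 log2 units, or 0.60 with 26 arrays.

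*PKM*, the pyruvate kinase of muscle and most other tissues, had medians of 7.11, 6.83, 6.89 and 7.36 in CO, E2T, P4T and E2P4T, within 3.68 to 8.52, 6.18 to 7.55, 5.60 to 8.90 and 6.57 to 9.95. Its highest values in P4T and E2P4T were those of P4T 4 and E2P4T 5. Its differences of 0.57 in P4T and 0.93 in E2P4T became 0.28 and 0.52 without them. Phosphofructokinase (*PFKL*, *PFKM*) had no 95% interval beyond 0.82 log2 units. *PFKFB1* and *PFKFB3* encode enzymes that set the level of its activator, and with 26 arrays their bounds were 0.730 and 1.10. For *PFKFB3* the probe sets disagreed: the chosen one gave -0.11, -0.20 and -0.24, and another of lower signal gave -1.16, -1.04 and -0.64. With 26 arrays these were -0.11, -0.35 and -0.42 at the chosen one and -1.16, -1.16 and -0.91 at the other, whose F test was under an unadjusted p of 0.05 with 26 arrays but not with 28. The remaining one gave -1.28, 0.15 and -0.93 with 28 arrays, and it reached the filter on low signals only on P4T 4 or E2P4T 5.

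Of the 8 reversible glycolytic enzymes, 7 were above CO for E2T, 4 for P4T and 7 for E2P4T, and with 26 arrays 7 were above CO in each treatment. With 28 arrays 1 of the 8 was under an unadjusted p of 0.05, *PGK1*, phosphoglycerate kinase, in E2P4T, and with 26 arrays none was. This gene was named after its values were seen. It was 11.04, 11.83 and 12.43 (lowest, median, highest) in CO, 11.36, 12.24 and 12.55 in E2T, 11.00, 12.18 and 12.37 in P4T, and 11.53, 12.33 and 12.88 in E2P4T. The groups overlapped, with 6 of 7 arrays of each treatment above the CO mean. The difference in E2P4T was 0.49 ± 0.23 (SE, limma, unadjusted p = 0.0459, adjusted p = 0.932), and 0.39 ± 0.21 with 26 arrays (unadjusted p = 0.0697). With 26 arrays the 95% intervals reached at most 0.474 log2 units from 0 for the aldolase *ALDOA*, 0.585 for the enolase *ENO1*, 0.615 for the isomerase *GPI* and 0.702 for *GAPDH*. They reached 0.979 for the mutase *PGAM1*, 1.00 for the aldolase *ALDOC* and 1.03 for *TPI1*, triosephosphate isomerase.

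*LDHA*, a subunit of lactate dehydrogenase, which interconverts pyruvate and lactate, was also named after its values were seen. It was 10.80, 11.69 and 12.30 (lowest, median, highest) in CO, 11.60, 12.06 and 12.74 in E2T, 10.26, 11.84 and 12.44 in P4T, and 11.85, 12.02 and 13.08 in E2P4T. The groups overlapped, but all 7 arrays of E2T and all 7 of E2P4T lay above the CO mean. The differences were 0.49, 0.15 and 0.58 (± 0.27, SE), and the last had an unadjusted p of 0.0394 (limma, adjusted p = 0.932). With 26 arrays they were 0.49, 0.40 and 0.43. The other 2 *LDHA* probe sets gave 0.19 and 0.14 in E2T, and 0.29 and -0.13 in E2P4T.

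*LDHB*, the other subunit, had medians of 14.26, 14.22, 14.43 and 14.31 in CO, E2T, P4T and E2P4T. Its ranges were 12.80 to 15.11, 13.27 to 14.54, 11.50 to 14.69 and 13.69 to 15.93, with the lowest value on P4T 4 and the highest on E2P4T 5. Its differences were -0.07, -0.29 and 0.22 with 28 arrays and -0.07, 0.12 and -0.03 with 26, where the 95% intervals stayed within 0.65 log2 units.

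In glycogen metabolism, *GYS2*, the liver glycogen synthase, had medians of 13.69 in CO, 13.54 for E2T, 13.64 for P4T and 13.66 for E2P4T. Its ranges were 13.24 to 15.13, 13.16 to 14.74, 13.05 to 14.99 and 8.03 to 14.63. The value of 8.03 was that of E2P4T 5. The E2P4T difference was -0.99 with 28 arrays (95% interval -2.18 to 0.20) and -0.18 with 26 (-0.73 to 0.38), so that 1 array made most of it.

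*GBE1*, the branching enzyme of glycogen, was 11.03, 12.02 and 12.60 (lowest, median, highest) in CO, 11.37, 12.52 and 12.73 in E2T, 11.01, 12.43 and 12.73 in P4T, and 10.41, 12.16 and 12.84 in E2P4T. The lowest values of P4T and E2P4T were those of P4T 4 and E2P4T 5, and 6 of 7 arrays of each treatment lay above the CO mean. The differences were 0.43, 0.39 and 0.24 (± 0.33, SE). With 26 arrays they were 0.43, 0.59 and 0.52, with an unadjusted p of 0.0277 in P4T (limma, adjusted p = 0.612), and 6 of 6 arrays of P4T and of E2P4T were above the CO mean.

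*PYGL*, the liver glycogen phosphorylase, had medians of 11.71 in CO, 12.36 for E2T, 12.37 for P4T and 12.39 for E2P4T. Its ranges of 10.68 to 13.19, 11.27 to 12.77, 10.13 to 12.77 and 10.13 to 13.05 overlapped. Its differences of 0.30, -0.08 and 0.02 had 95% intervals that reached -0.93 and 1.15, and with 26 arrays they were 0.30, 0.22 and 0.34. *GYG1* was bounded most tightly of the 40 genes: no 95% interval went beyond 0.358 log2 units with 26 arrays. For *UGP2*, which makes the UDP-glucose that glycogen is built from, that bound was 0.812. At the chosen probe set of *PGM1*, which links glucose-1-phosphate and glucose-6-phosphate, it was 1.00. The other probe set of *PGM1*, of lower signal, gave 1.30, 0.29 and 0.84 with 26 arrays (limma, F test, unadjusted p = 0.356).

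Pyruvate enters the mitochondrial acetyl-CoA pool through the pyruvate dehydrogenase complex, which its kinases switch off. *PDHB*, a subunit of its first enzyme, was 9.26, 10.04 and 10.46 (lowest, median, highest) in CO, 9.88, 10.22 and 10.46 in E2T, 9.50, 10.10 and 10.64 in P4T, and 10.02, 10.18 and 10.64 in E2P4T. The groups overlapped, with 6 of 7 E2T arrays and 7 of 7 E2P4T arrays above the CO mean. The differences were 0.30, 0.06 and 0.28 (± 0.20, SE), and with 26 arrays the P4T difference was -0.04. With 26 arrays the main effect of estradiol had an unadjusted p of 0.0342 (limma, log2 difference 0.30 ± 0.14, adjusted p = 0.938). The study names *PDHB* among the genes substantially raised by progesterone, which these P4T values do not show. The other probe sets of *PDHB* did not reach the filter on low signals. The study does not state which probe set it read. It used a mixed model and another set of arrays, with more CO arrays and with outlying arrays of P4T and E2P4T left out. The cause of the difference was not tested.

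*PDK4*, a kinase that is known to be induced in fasting, was 10.46, 10.95 and 12.27 (lowest, median, highest) in CO, 10.78, 11.44 and 12.58 in E2T, 11.23, 11.70 and 12.00 in P4T, and 9.70, 11.63 and 11.92 in E2P4T. All P4T values lay inside the range of CO and above its mean. The differences were 0.39, 0.54 and 0.23 (± 0.31, SE), and 0.39, 0.53 and 0.51 with 26 arrays, where limma's unadjusted p was 0.144, 0.0602 and 0.0709. Its other 2 probe sets gave 0.23 and 0.16 in P4T with 26 arrays. *PDK2* differed by -0.25, -0.24 and -0.48 (± 0.28, SE) with 28 arrays and by -0.25, -0.14 and -0.18 with 26, with no unadjusted p under 0.05. *PDHA1* and *DLAT*, further subunits of the complex, had no 95% interval beyond 0.665 and 0.624 log2 units with 26 arrays.

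Of the shuttle enzymes, *MDH2*, *GOT1* and *GOT2* had no unadjusted p under 0.05, and with 26 arrays no 95% interval beyond 0.67 log2 units. The lower-signal probe set of *GOT2*, the mitochondrial aspartate aminotransferase, gave 0.58, 0.27 and 0.66, against 0.10, 0.14 and -0.01 at the chosen one.

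The factorial design was also read as main effects and as an interaction, the difference between the combined treatment and the sum of the single ones. For the main effect of estradiol, *FBP1* (0.96, unadjusted p = 0.0490) and *LDHA* (0.46, unadjusted p = 0.0221) were under 0.05 in limma's test with 28 arrays (background 4.00%, with 1.37% higher), and with 26 arrays only *PDHB* was (background 4.37%, with 1.40% higher). For the main effect of progesterone none of the 40 genes was, with either set (background 1.65%, with 0.983% higher, for 28 arrays, and 3.66% for 26). For the interaction *PC* was (0.85 ± 0.33, SE, unadjusted p = 0.0160, adjusted p = 1; background 2.98%, with 2.39% above 0). With 26 arrays *PC* (0.68 ± 0.32, unadjusted p = 0.0400) and *PCK1* (-0.59 ± 0.27, unadjusted p = 0.0395) were, both with an adjusted p of 0.987 (limma; background 3.41%, with 2.31% above 0 and 1.10% below). The positive sign of *PC* means that E2P4T lay less far below CO than the sum of E2T and P4T, and the negative sign of *PCK1* that it lay less far above.

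A wider list of 70 further genes of glucose uptake, glycolysis, glycogen and their control held 48 with a probe set, of which 45 were tested with 28 arrays and 42 with 26. None had an adjusted p under 0.05 in any contrast with CO. At an unadjusted p under 0.05, 2 were higher and 0 lower in E2T, 0 in P4T, and 1 higher and 1 lower in E2P4T, where the background over all probe sets was 5.40%, 2.75% and 4.90%. With 26 arrays the counts were 3 and 2, 2 and 1, and 2 and 1, against a background of 10.4%, 7.86% and 9.61%. The lowest F test p belonged to *SLC2A5*, the fructose transporter, with log2 fold changes of 0.85, 0.55 and 1.00 (± 0.37, SE; limma, adjusted p = 1). It was followed by *MPC1*, a subunit of the mitochondrial pyruvate carrier, with 1.00, 0.24 and 0.71 (± 0.40, SE; limma, adjusted p = 1). With 26 arrays the differences of *SLC2A5* were 0.85, 0.85 and 0.89 and those of *MPC1* 1.00, 0.59 and 0.72, with limma's adjusted p at 0.927 and 0.933.

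Single arrays departed further than any group mean. On E2P4T 5, 14 genes lay below the range of the 26 arrays, 15 above it and 11 within it. Below were *GYS2*, by 5.6 log2 units from the median of the 26, the glycogen enzyme *PGM1* by 5.4, *PFKFB1* by 4.3 and *SLC2A2* by 3.6. Above were the aldolase *ALDOA* by 3.2, *PKM* by 3.0, *HK1* by 2.6 and *LDHB* by 1.6. Of the gluconeogenic enzymes, *PCK1* and *PCK2* lay below the range there, *G6PC* and *FBP1* within it and *PC* above it. On this array 14 of 15 hepatocyte markers lay below the range and 3 of 4 biliary markers above it. The part of cell or tissue composition in these values was not tested. On P4T 4, 14 genes lay below the range of the 26 and 5 above. *HK1* and *LDHB* were each 2.8 log2 units below the median of the 26 there and *GAPDH* 2.7 below, with a *GAPDH* control difference of 8.48, the largest of all arrays, and its part in these values was not tested.

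**Figure D4:**
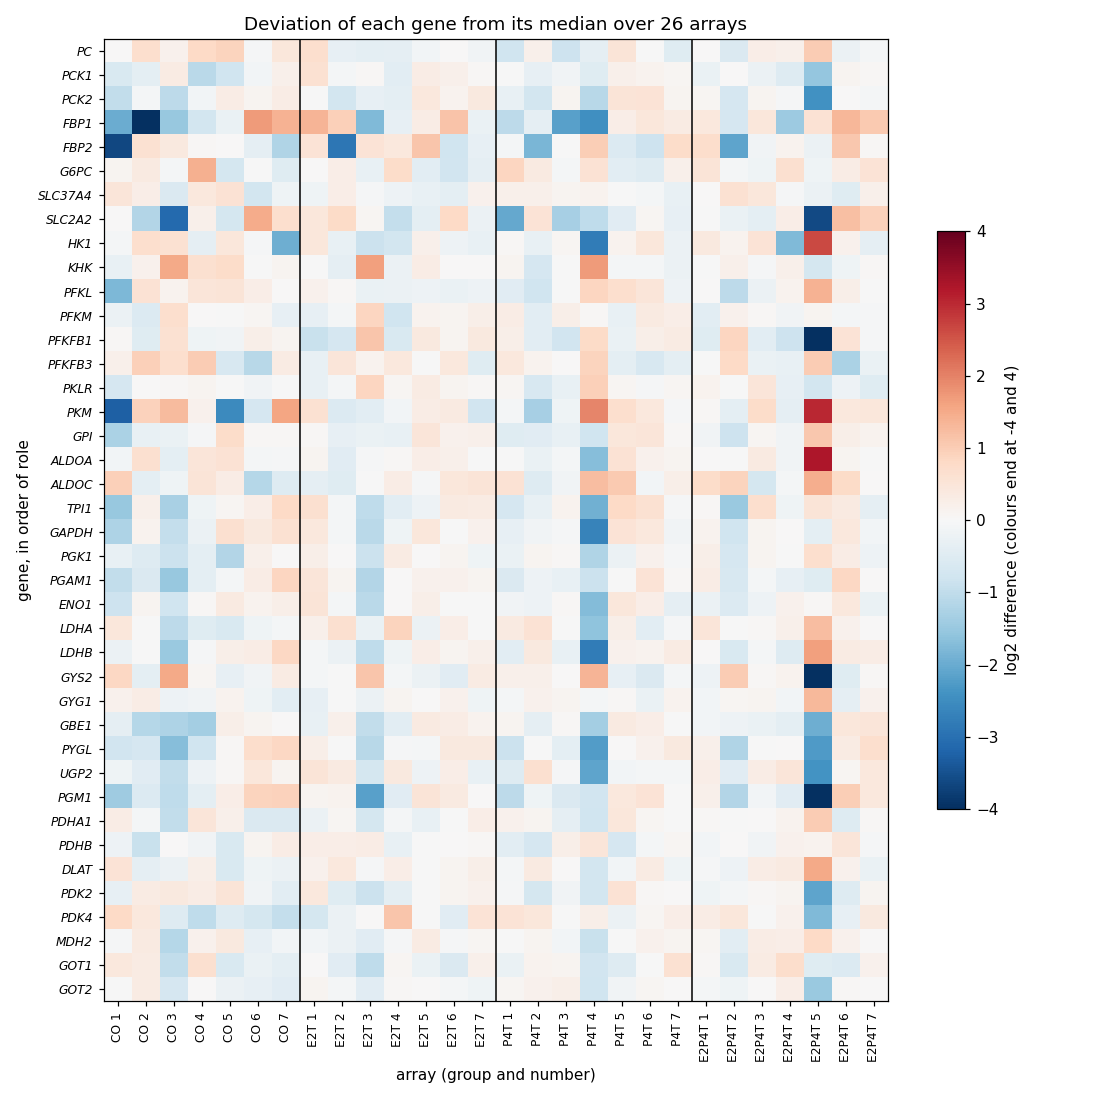
Difference of each gene's log2 signal from its own median over the 26 arrays (colour, red higher, blue lower, ending at -4 and 4), with the 40 genes in rows, in order of role, and the 28 arrays in columns by group. E2P4T 5 is the column with the deepest colours, blue for GYS2, PGM1, PFKFB1 and SLC2A2 and red for ALDOA, PKM and HK1.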

How the data were processed

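Per the labels and the study's methods, the authors hybridised biotin-labelled liver mRNA to the Affymetrix Bovine GeneChip and deposited MAS5 signal intensities, on a linear scale, scaled by array to one trimmed mean. The mean after trimming 2% at each end was 974 to 993 on the 28 arrays. Only intensities were analysed here, without detection calls, and precision rests on how many arrays each group has. Control probe sets (112 of 24128) were left out. Symbols came from the platform annotation, updated through RefSeq gene identifiers: 13292 probe sets had 1 symbol, 86 had several and 10638 were not listed.

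Signals were set on a log2 scale with no further scaling. Probe sets with a highest log2 signal of at least 8.5 were tested (18517 with 28 arrays, 14414 with 26). The 4103 tested with 28 arrays and not with 26 reached 8.5 only on E2P4T 5 or P4T 4. These 2 arrays had median signals of 512.2 and 439.4, against 178.2 to 322.2 on the other 26. The background shares with 28 arrays include those probe sets. R 4.3.3 and limma 3.58.1 (lmFit with 1 coefficient per group, eBayes with a variance trend) gave an F test over the contrasts with CO, each contrast, main effects and interaction, adjusted by Benjamini-Hochberg over all probe sets tested. The study's mixed model needs cow and period, which the labels do not give, and was not run. The test was checked on simulated data with independent noise for each probe set and array. These held no outlying array and no shared cow, so the check does not cover those features of the real arrays.

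Members and lists were chosen with earlier results of these data known. Lowest, median and highest values are given for *PC*, *PCK1*, *PCK2*, *FBP1*, *G6PC*, *SLC2A2*, *GYS2*, *PYGL*, *PKLR*, *PDHB*, *PDK4*, *LDHB* and *KHK*, for members with an F test p under 0.05, and for the highest and lowest member of each contrast with CO. Of the wider list, log2 fold changes are given for the 2 with the lowest F test p. Other genes named with values were chosen after these were seen.

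Alternatives were quantile normalization, centring on the median, all probe sets without a filter, only probe sets of high mean signal, log2 of the signal plus 50, no variance trend, a fixed or random replicate block, a term for array numbers, array weights, fewer arrays, only the groups compared and the mean over probe sets. A covariate of the *GAPDH* controls was added after seeing the data.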

Additional observations from a re-analysis of the deposited data

Results flagged for a closer look

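For 15 genes and for the median deviation of the 40 genes, 64 groups were tested for an array far from the others of its group by Dixon's test. Of these, 19 passed its 95% value. Chance flags about 1 in 20 independent tests, but these share the same arrays. A single array can thus be flagged for many genes, and the 19 cannot be set against that rate. No explanation was tested for any of the 19. Array E2P4T 5 accounted for 9: *PCK1* 13.12, *PCK2* 10.83, *SLC2A2* 3.98, *GYS2* 8.03, *PDK4* 9.70, *KHK* 13.30 and *GBE1* 10.41 were the lowest of E2P4T, and *LDHB* 15.93 and *PKM* 9.95 the highest. Array P4T 4 accounted for 5: *GYS2* 14.99 and *KHK* 15.70 were the highest of P4T, while *LDHB* 11.50, *GBE1* 11.01 and the median deviation of the 40 genes from their medians over the 26 arrays, -0.76, were the lowest. The other 5 lay on arrays kept in every comparison. In E2T, array 1 was highest for *PC* at 12.56, and array 3 was lowest for *PYGL* at 11.27 and *LDHB* at 13.27 and highest for *KHK* at 15.63. E2T 3 had a *GAPDH* control difference of 6.45, against at most 4.65 on the other E2T arrays. In CO, array 1 was lowest for *PKLR* at 11.88. No interaction of estradiol and progesterone passed an adjusted p of 0.05 for the 40 genes (0 of 40; limma), and at an unadjusted p under 0.05 there was 1.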

How the results depend on the processing

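The count of genes with an adjusted p under 0.05 was 0 in every comparison and under each of the 20 alternatives run, and the lowest adjusted p of a named gene in a contrast with CO was 0.149 (*PCK1* in E2T, array weights). The count meeting the study's criteria was 0 except in 2 alternatives, with 1 gene each: *GBE1* with the replicate block without P4T 4 and E2P4T 5 (limma, adjusted p = 0.605), and *PC* with array weights (limma, adjusted p = 0.501). The unadjusted p of *PC* in limma's F test was 0.00911 with array weights but over 0.05 in some alternatives. It was 0.366 with median centring and 0.0688 with quantile normalization or no variance trend. Without P4T 4 alone it was 0.0644, and over probe sets of high mean signal 0.0512. Counts at an unadjusted p under 0.05 reached 6 of 40, in E2T with array weights (17.1% of all probe sets) and in P4T with the replicate block without the 2 arrays (10.7%). Of 45 named fold changes 20 kept their sign in every alternative, those of *PC* among them, and 72 of 894 values changed sign, none of them called. Arrays left out gave ranges of -0.018 to 0.056 for *G6PC*, -0.082 to 0.22 for *PYGL*, -0.034 to 0.12 for *PKLR*, -0.044 to 0.060 for *PDHB* and -0.29 to 0.12 for *LDHB* in P4T, and -0.22 to 0.11 for *PCK2*, -0.072 to 0.026 for *PKLR* and -0.027 to 0.22 for *LDHB* in E2P4T. The other sign changes follow by alternative, as log2 fold changes. Quantile normalization gave *PYGL* -0.076 in E2P4T. Without the 2 arrays it gave, in P4T, *G6PC* -0.048, *SLC2A2* 0.10, *PYGL* 0.18, *PKLR* -0.098, *PDHB* -0.012 and *LDHB* 0.069, and in E2P4T *PCK2* 0.057 and *LDHB* -0.055. Median centring gave, in E2T, *G6PC* 0.065, *GYS2* 0.080, *LDHB* 0.20 and *KHK* 0.056, and *PYGL* 0.034 in P4T. Log2 of the signal plus 50 gave *PKM* -0.026 in E2T and *FBP1* -0.072 in P4T. Array weights gave *G6PC* -0.12, *PYGL* 0.19 and *PKLR* -0.033 in P4T, and *PCK2* 0.059, *PKLR* 0.028 and *LDHB* -0.045 in E2P4T. The replicate block without the 2 arrays gave *PYGL* 0.20, *PKLR* -0.042, *PDHB* -0.052 and *LDHB* 0.089 in P4T, and *PCK2* 0.20 and *PKLR* 0.051 in E2P4T. The array number term without them gave *PYGL* 0.16, *PKLR* -0.035, *PDHB* -0.051 and *LDHB* 0.074 in P4T, and *PCK2* 0.17 and *PKLR* 0.027 in E2P4T. The *GAPDH* covariate gave *PCK2* -0.043, *PYGL* -0.11 and *KHK* 0.016 in E2T, *FBP1* -0.099 in P4T, and *PCK1* -0.072, *SLC2A2* -0.27, *PYGL* -0.42, *PKLR* 0.023, *LDHB* -0.11 and *GBE1* -0.018 in E2P4T. With 26 arrays it gave *GYS2* 0.013 and *PYGL* -0.081 in E2T, *FBP1* -0.29 and *PDHB* -0.10 in P4T, and *GYS2* 0.062, *PYGL* -0.11, *PKLR* 0.085 and *LDHB* -0.31 in E2P4T. The mean over the probe sets of a gene gave *KHK* 0.10 in P4T, and *G6PC* -0.11, *PYGL* -0.0061 and *KHK* 0.022 in E2P4T. The cause of these changes was not tested. For the pairing, same-numbered arrays of different groups had a median correlation of deviations of 0.113 (-0.136 to 0.434, 36 pairs), against -0.0321 for 217 pairs of different number. Not every same-numbered pair was over 0.1 (19 were), the rule set for pairing, so the main test has no block, although the same cow may lie behind a number. With the replicate block the count at an adjusted p under 0.05 stayed 0.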
